A study of Arabidopsis thaliana with 12 samples.

Results

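CUTA (AT2G33740), LpxA (AT4G29540) and CYN (AT3G23490) are Arabidopsis thaliana genes whose products resemble bacterial proteins. They are 3 of the 691 genes that were measured by a probe naming exactly 1 gene, on an array with 692 such probes among 3439, and each of the 3 had 1 such probe. They were chosen because their signal was much lower after 30 min of light than after 12 h of darkness in these same samples, so the differences between light and dark given for them are descriptions and carry no test. The array was hybridised with total RNA of wild-type plants of the Landsberg ecotype, with no mutation or chemical treatment in either group. The 6 light samples came from plants given 30 min of light at the end of a 12 h dark period, and the 6 dark samples from plants that had completed 12 h of darkness. The sources used here give no tissue, no plant age and no number of plants per sample. The light plants were also 30 min further on than the dark plants, and the effects of time and of light cannot be told apart.

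CutA proteins are small trimeric proteins found from bacteria to animals. The family took its name from copper tolerance in Escherichia coli, and the Arabidopsis member is known as a chloroplast protein, with no reaction established for it. LpxA of Escherichia coli is the acyltransferase that takes the first step in the synthesis of lipid A, the membrane anchor of bacterial lipopolysaccharide, and Arabidopsis carries relatives of several enzymes of this route, which have been placed in mitochondria. Cyanase, the product of CYN, uses bicarbonate to break cyanate down to ammonia and carbon dioxide, a reaction first worked out in Escherichia coli, where the enzyme lets cells use cyanate as a nitrogen source.

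The deposited intensities are linear values with an unknown unit. The highest value was 100 in every dark array and 65.7 to 77.6 in the light arrays, and how each group was scaled is not given. Array medians lay between 0.666 and 0.687 in light and between 0.443 and 0.491 in the dark, so values as deposited are set beside values after quantile normalization, which gives every array the same distribution. None of the 36 member values was at the floor set for low values. The 12 samples are numbered 1 to 6 in each group, and consecutive numbers (1 and 2, 3 and 4, 5 and 6) resembled each other within a group, so the 6 samples of a group may hold fewer than 6 independent ones.

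CUTA had the widest gap between groups of the 3 genes. Its deposited intensity had a lowest value of 1.52, a median of 1.65 and a highest value of 1.81 in light, against 9.70, 10.4 and 12.5 in the dark. The groups were far apart, since the lowest dark sample was 5.36 times the highest light sample. The means were 1.65 ± 0.123 in light and 10.9 ± 1.17 in the dark (SD, n = 6 each), which left 15.2% of the dark mean in light. After quantile normalization the log2 difference, light minus dark, was -2.63 ± 0.09 (SE, n = 6 each), a signal 6.19-fold lower in light. In RNA of whole samples, fewer cells of a type and less RNA per cell cannot be told apart.

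LpxA stood at 0.659, 0.730 and 0.775 (lowest, median and highest deposited intensity) in light, against 2.19, 2.45 and 3.05 in the dark. Again no light sample reached the dark range, and the lowest dark sample was 2.83 times the highest light sample. The means were 0.726 ± 0.0377 in light and 2.59 ± 0.370 in the dark (SD, n = 6 each), so that 28.1% of the dark mean was present in light. Its normalized log2 difference was -2.11 ± 0.09 (SE, n = 6 each), or 4.32-fold lower in light.

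CYN had deposited intensities of 0.631, 0.844 and 0.902 (lowest, median and highest) in light, against 1.71, 1.98 and 3.02 in the dark. Its groups were the closest of the 3 genes but did not overlap, with the lowest dark sample at 1.89 times the highest light sample. The means were 0.803 ± 0.111 in light and 2.21 ± 0.515 in the dark (SD, n = 6 each), and 36.4% of the dark mean was present in light. Its normalized log2 difference was -1.69 ± 0.13 (SE, n = 6 each), or 3.23-fold lower in light. Groups that did not overlap, with light below dark, were found for 8.09% of the 692 probes on the deposited values and for 16.8% after normalization. The 3 genes were picked from among them, so their share says nothing further.

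**Figure D1:**
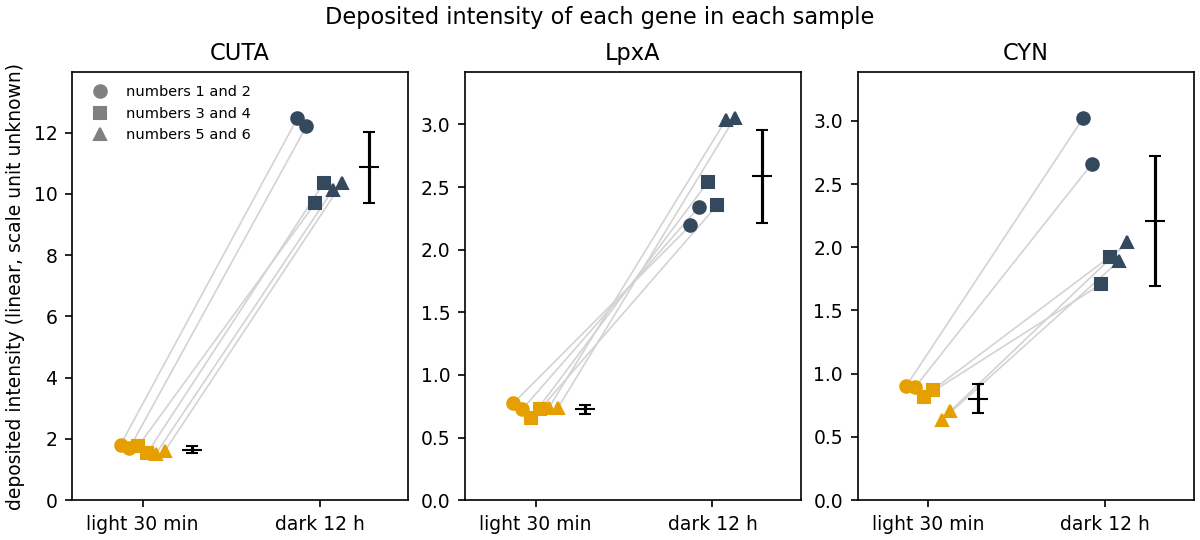
Deposited intensity (linear, unit unknown) of CUTA, LpxA and CYN in each of the 6 light and 6 dark samples, with the mean and SD in black beside the points and grey lines joining samples of the same number. Marker shapes show consecutive numbers. In each panel all light points lie below all dark points, and the light points are closer together than the dark ones.

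The coefficient of variation of the deposited values was 7.46% in light and 10.7% in the dark for CUTA. It was 5.19% in light and 14.3% in the dark for LpxA, and 13.9% in light and 23.4% in the dark for CYN. It was thus smaller in light for each gene, and no test of these spreads was made. On the normalized log2 scale CYN kept a near equal SD in both groups, at 0.22 in light and 0.24 in the dark, whereas LpxA had 0.09 in light and 0.20 in the dark. Placed among the SDs of all 3439 probes, CYN was at the 62.2nd percentile in light and the 35.7th in the dark, CUTA at the 23.2nd in light and the 20.9th in the dark, and LpxA at the 15.1st in light and the 24.4th in the dark. Relative to other probes, then, the spread was lower in light for LpxA alone of the 3.

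The same direction was seen in every number, as it must be where no light sample reaches the dark range. For CUTA the light sample held between 13.9% and 18.2% of the deposited value of the dark sample of its own number. The share lay between 24.0% and 35.3% for LpxA and between 29.9% and 47.7% for CYN. Thus the share for CUTA was below that for the other genes in every number, while the ranges of LpxA and CYN overlapped. Normalized log2 differences by number ran from -2.78 to -2.50 for CUTA, from -2.40 to -1.74 for LpxA and from -1.87 to -1.39 for CYN. CUTA had a more negative difference than LpxA in 6 of 6 numbers, by 0.52 on average (SD 0.35, n = 6), and than CYN in 6 of 6, by 0.94 (SD 0.25, n = 6). LpxA had a more negative difference than CYN in 5 of 6 numbers, with a mean gap of 0.42 that is close to its SD of 0.38 (n = 6). Since consecutive numbers resembled each other, these counts and SDs may rest on fewer than 6 independent numbers.

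**Figure D2:**
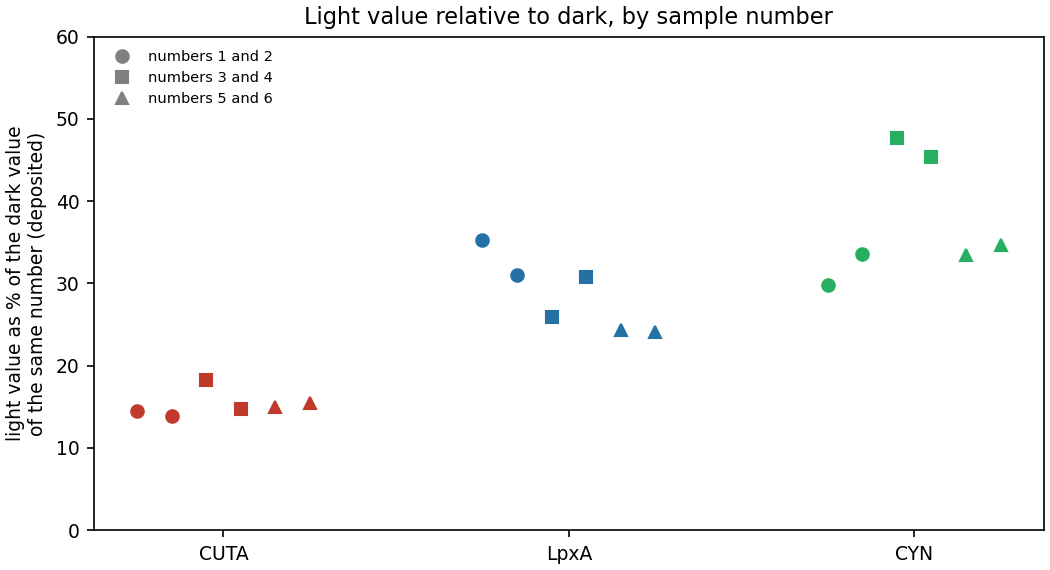
Deposited light intensity as a percentage of the deposited dark intensity of the same sample number, for CUTA, LpxA and CYN, with marker shapes for consecutive numbers and 6 points per gene. CUTA lies between 13.9% and 18.2%, LpxA between 24.0% and 35.3%, and CYN between 29.9% and 47.7%, where numbers 3 and 4 are highest for CYN and numbers 5 and 6 lowest for LpxA.

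Between samples of a group, CUTA and CYN varied alike and LpxA against both. Pearson's r of the deviations from the group means over the 12 samples was 0.70 for CUTA with CYN, -0.76 for CUTA with LpxA and -0.64 for LpxA with CYN, as descriptions over values that share arrays and resemble each other by consecutive number. In the dark, the mean deposited intensity of CYN was 2.84 in numbers 1 and 2, 1.82 in numbers 3 and 4, and 1.96 in numbers 5 and 6. CUTA had the same order of deposited values in the dark, with 12.3, 10.03 and 10.2. After normalization CUTA was lowest in numbers 5 and 6, at log2 values of 3.01 and 3.11, against 3.25 and 3.29 in numbers 3 and 4. CYN stayed lowest in numbers 3 and 4. In deposited intensity LpxA was instead lowest in numbers 1 and 2, with 2.27 there, 2.45 in numbers 3 and 4, and 3.04 in numbers 5 and 6. In light, CYN had 0.898, 0.844 and 0.669 in these pairs of numbers, and CUTA 1.75, 1.65 and 1.56. LpxA had 0.750, 0.692 and 0.736 in light, so the contrast between LpxA and the other genes was mainly one of the dark samples. Each pair of consecutive numbers is only 2 samples, and no label says what the numbers mark.

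The normalized log2 differences of CUTA by these pairs of numbers were -2.73, -2.64 and -2.52. For LpxA they were -1.83, -2.25 and -2.25, and for CYN -1.80, -1.44 and -1.84. LpxA therefore had its smallest difference in numbers 1 and 2, and CYN in numbers 3 and 4.

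The position of each probe within its own array was taken on the deposited values. Brightness also depends on the probe, so it gives no order of transcript abundance. CUTA was among the brightest probes in both groups, at the 88.8th to 92.0th percentile of all 3439 probes in the light samples and at the 99.0th to 99.3rd in the dark samples. Among the 692 probes that name 1 gene it ranked 47 to 70 in single light samples, against 6 to 8 in dark samples. Its deposited signal was 2.24 to 2.65 times the array median in light and 19.7 to 28.2 times in the dark.

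LpxA lay near the middle of the array in light, at the 47.6th to 57.6th percentile, and at the 94.6th to 96.4th in the dark. In rank among the 692 it stood at 287 to 357 in light samples, against 20 to 28 in dark samples. Its light signal was 0.958 to 1.14 times the array median, against 4.79 to 6.66 times in the dark.

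CYN was at the 46.5th to 66.9th percentile in light and at the 92.8th to 96.1st in the dark. In rank it stood at 219 to 363 in light samples, against 18 to 41 in dark samples. With 0.940 to 1.32 times the array median in light, against 3.47 to 6.83 times in the dark, CYN, like LpxA, had a light signal close to that of a typical probe, while CUTA stayed above it. Cyclic loess, which fits a curve between arrays over intensity, placed the mean light level higher than quantile normalization did, at the 93.3rd percentile against the 91.2nd for CUTA, the 60.9th against the 55.2nd for LpxA and the 66.0th against the 60.3rd for CYN.

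**Figure D3:**
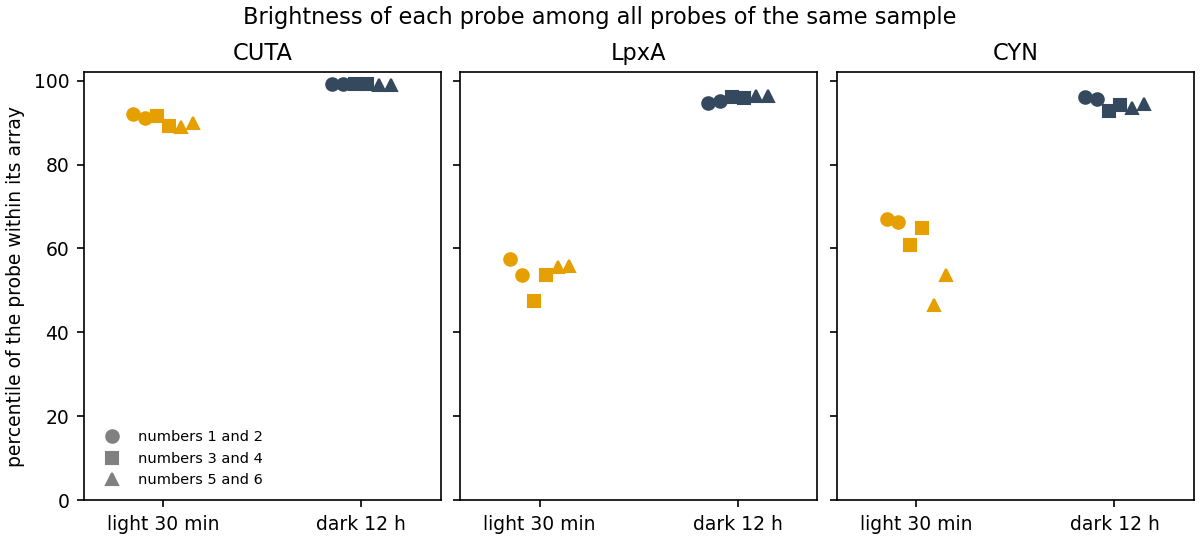
Percentile of the CUTA, LpxA and CYN probes among all 3439 probes of the same array, for the 6 light and 6 dark samples, with marker shapes for consecutive numbers. CUTA stays above the 88th percentile in light, whereas LpxA and CYN lie between the 46.5th and 66.9th in light, and all 3 lie above the 92nd in the dark.

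In the order of normalized differences of the 692 probes that name 1 gene, most negative first, CUTA was in place 2, LpxA in place 5 and CYN in place 9. Among all 3439 probes, whatever they name, the places were 13, 25 and 59. The median difference of the 692 probes was 0.04 and that of all 3439 was 0.01, so both orders are centred close to 0. Taken by sample number, CUTA was in place 2 or 3 of the 692 in each number, LpxA in places 4 to 11 and CYN in places 6 to 19.

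The genes beside them in the order were AT1G62250 above CUTA, with a log2 difference of -2.96, and AT3G09080 and AT1G03810 between CUTA and LpxA, at -2.51 and -2.36. AT4G30740, AT1G21660 and AT4G31470 lay between LpxA and CYN, at -1.88, -1.85 and -1.82. AILP1 (AT5G19140) and AT1G15140 followed CYN, at -1.66 and -1.65, and AILP1 was at the floor in all 6 light samples, so its difference depends on the floor. The deposited intensity of AT1G62250 was 1.55 ± 0.0542 in light and 12.5 ± 1.65 in the dark (SD, n = 6 each). AT3G09080 had 0.663 ± 0.0382 in light and 3.22 ± 0.425 in the dark (SD, n = 6 each).

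**Figure D4:**
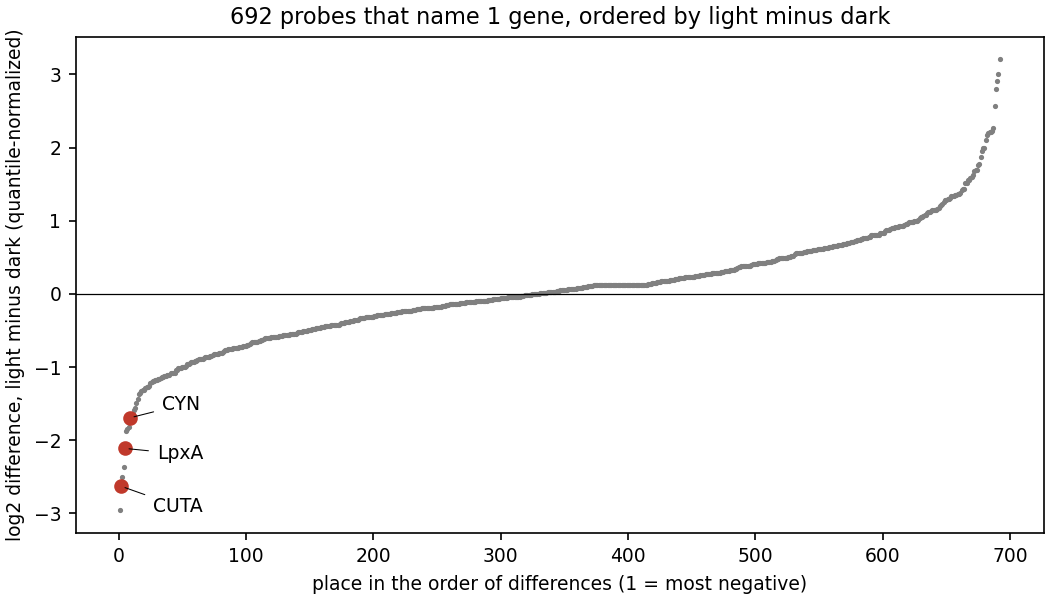
Log2 difference, light minus dark, of quantile-normalized intensity for the 692 probes that name 1 gene, in order from the most negative, with each grey point 1 probe and the 3 genes in red. CUTA, LpxA and CYN lie at the negative end, at -2.63, -2.11 and -1.69.

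The scaling between arrays moved the size of the differences and some of the places. On the values as deposited the median difference of all probes was 0.44, and relative to it CUTA stood at -3.16, LpxA at -2.26 and CYN at -1.88 on the log2 scale. The same figures must hold with each array centred on its median, since centring shifts all probes of an array alike. With cyclic loess, and relative to a median of 0.04, CUTA stood at -2.25, LpxA at -2.06 and CYN at -1.70. The gap between CUTA and LpxA was thus narrow with loess and wide as deposited. The places of CUTA, LpxA and CYN among the 692 were 2, 5 and 9 as deposited and 3, 5 and 9 with loess. Among all 3439 probes they moved further, to 8, 39 and 64 as deposited or with centred arrays and to 18, 23 and 47 with loess.

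Of 93 other genes in 9 pathway lists, 3 had a probe that names 1 gene. Each of these 3 was called by limma over all probes (adjusted p under 0.05). Of the lists, only those for lipid A, copper and cyanate hold a member. Of all 3439 probes, 52.5% were called, 23.6% higher and 29% lower in light, so a call is common on this array. The median difference of the 3 genes was 0.69 on the log2 scale, against 0.01 over all probes. With 3 genes this median is the value of 1 of them, CKS, and does not describe the lists. None of the genes named in the lists for nitrogen assimilation, for cyanate, cyanide and bicarbonate metabolism, for the MEP isoprenoid route, for plastid division, for plastid ppGpp and Mur-type genes or for plastid iron-sulphur cluster assembly had a probe of its own here, apart from CYN.

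CKS (AT1G53000) makes CMP-KDO, an activated sugar that bacteria attach to lipid A and plants build into the pectin rhamnogalacturonan II. It was the 1 measured gene beside LpxA in the lipid A list and it rose, in the direction opposite to the difference of LpxA. Its deposited intensity had a lowest value of 0.313, a median of 0.349 and a highest value of 0.408 in light, against 0.111, 0.163 and 0.218 in the dark. The normalized log2 difference was 0.69 ± 0.15 (SE, n = 6 each, limma adjusted p = 0.00222), and light was higher in 6 of 6 numbers. Its size depended on floor and scaling, at 0.43 with the floor at the 10th percentile and 1.14 as deposited. One dark value was at the floor, and with consecutive numbers averaged the limma adjusted p was 0.0465. CKS stood at a low signal, below the 25th percentile of mean level.

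CCS (AT1G12520) is the copper chaperone that loads copper into Cu/Zn superoxide dismutase, and it was the 1 measured gene beside CUTA in the copper list. Its deposited intensity was 0.0400, 0.150 and 0.157 (lowest, median and highest) in light, against 0.00716, 0.228 and 0.329 in the dark, with groups that overlapped. The log2 difference was -0.75 ± 0.28 (SE, n = 6 each, limma adjusted p = 0.0382), but 5 light and 2 dark values were at the floor and 2 of 6 numbers were higher in light. The call was lost as deposited (limma adjusted p = 0.146) and with consecutive numbers averaged (limma adjusted p = 0.182). It was also lost without number 1, 2, 5 or 6, at limma adjusted p-values of 0.110, 0.116, 0.0747 and 0.118.

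AT1G24360 is known as the ketoacyl reductase of the bacterial-type fatty acid synthase of plastids. It rose, with deposited intensities of 0.613, 0.673 and 0.742 (lowest, median and highest) in light, against 0.249, 0.257 and 0.308 in the dark. The log2 difference was 0.81 ± 0.08 (SE, n = 6 each, limma adjusted p = 5.34e-06), higher in light in 6 of 6 numbers, and it was 1.34 as deposited. With consecutive numbers averaged the limma adjusted p was 0.00396. Of the 3 measured list genes, then, 2 rose and 1 was called lower on values mostly at the floor. AT1G24360 is from a list that holds none of CUTA, LpxA and CYN.

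Likeness of pattern was measured by Pearson's r of normalized log2 values over the 12 samples, among 621 probes that name 1 gene and are rarely at the floor. For CUTA the most alike were AT3G09080 and AT1G62250, both at 0.99, followed by AT4G01810, AT1G03810 and AT4G31470, which also rounded to 0.99. For LpxA they were AT1G21660, AT4G31470, AT3G09080, AT1G62250 and AT4G27390, at 0.98 to 0.99. For CYN they were AT2G03390, AT1G03810, AT2G37510, CUTA and AT3G54210, the last a plastid ribosomal protein, also at 0.98 to 0.99. With 2 groups so far apart, r mostly reflects the step between them, and any probe with a clean step in the same direction comes close to 1. AT4G01810, for example, had 0.510 ± 0.0338 in light and 0.810 ± 0.0979 in the dark (SD, n = 6 each), a far smaller step than that of CUTA.

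Once the group means were taken out, mostly other genes were the most alike. They are the probes with the highest r among the 621, over samples that resemble each other by consecutive number. CUTA then varied most like SAP (AT5G35770), GH9B12 (AT2G44570), AT3G56290, OTP70 (AT4G25270) and AT5G26850, with r from 0.89 to 0.93 over 12 deviations. SAP and GH9B12 each had 1 dark value at the floor. LpxA varied most like AT3G49740, AT1G67800, AT2G46190, AT4G39760 and ATSPS4F (AT4G10120), with r from 0.87 to 0.91. CYN varied most like AT2G20920, AT4G23110, AT2G03390, AT1G51350 and AT1G11820, with r from 0.92 to 0.94. Of these, AT2G03390, AT1G51350 and AT1G11820 have the close probe numbers 1533, 1528 and 1522. In the list of LpxA, AT3G49740 and AT4G39760 have 2478 and 2446, and AT2G46190 and ATSPS4F have 2679 and 2649. Across the array, deviations were more alike between probes with close numbers, and the part of probe number in these likenesses was not tested. AT1G51350 had the most positive difference of the 692 probes, with 6.77 ± 0.972 in light and 0.732 ± 0.138 in the dark (SD, n = 6 each). AT1G51350, whose sample-to-sample variation was like that of CYN, thus differed between light and dark in the opposite direction.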

How the data were processed

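The authors deposited 1 table of linear intensity values, 3439 probes by 12 samples, all mapped to samples by name. The sources used here do not give the scanner, the background correction or the scaling, and the table has no column for background or depth. The number of arrays limits the precision. Between 139 and 153 probes per light array and between 108 and 131 per dark array were listed at 0.

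Samples were grouped and numbered from their titles. Linear values were quantile-normalized, values below an array's own 5th percentile, computed over its positive values, were raised to it before taking log2. A limma model (version 3.58.1, under R 4.3.3, with lmFit and eBayes) then set light against dark over all probes, 6 against 6, two-sided, with Benjamini-Hochberg adjustment and a threshold of 0.05. The fit was tested on simulated data with independent noise. The samples here deviated together by number, so that test does not check the p-values for such correlation. No source says whether the samples within a group are separate plants, so p-values measure only the spread between these samples, which may be technical.

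The platform annotation named 1 gene for 692 probes, of which 690 were matched to a TAIR10.1 table for symbols, several genes for 870, and 1877 are unnamed here. No coordinates were used. AT2G25870, the 1 gene with 2 probes that name it alone, had normalized log2 differences of -0.39 and 0.92 for them. A single probe may therefore not stand for its gene. Members, lists and tests were chosen with earlier results of these data known. The genes named are the 3 members, every measured list gene, the 2 probes on each side in the order of differences, and for each member the 5 most alike by Pearson's r over the 12 samples and the 5 most alike in deviations from the group means, leaving out probes at the floor in 3 or more samples of a group.

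The sample numbers are shared by both groups. Across probes, light and dark samples of the same number deviated together from their group means (r of 0.41 to 0.65, all above 0.1). By that criterion the samples are paired by number, without a label that states it. The main fit did not use this pairing. Consecutive numbers within a group correlated at 0.36 to 0.60, and no 2 columns held more than 2 identical values above 0. Alternatives were 3 other scalings, another floor, a pseudocount of 0.1, averaging of consecutive numbers, the replicate block, a filter on dim probes, and leaving out each number. Averaging with the block was added after seeing the data.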

Additional observations from a re-analysis of the deposited data

How the results depend on the processing

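CUTA, LpxA and CYN were lower in light under all 15 alternatives run, but they were chosen for this direction. Leaving out 1 number could hardly reverse it, since light was lower in every number. The block, the averaging and the filter on dim probes return the same differences by design, so they are no check on them. The log2 differences of the 3 genes ranged from -3.25 to -2.21, from -2.36 to -1.82 and from -1.98 to -1.44. By more than the SD between numbers, arrays centred on their median moved them to -3.25, -2.36 and -1.98, the deposited values moved LpxA to -1.82 and CYN to -1.44, and loess moved CUTA to -2.21 and its place to 3. Leaving out 1 number gave -2.68 to -2.59 for CUTA, -2.17 to -2.08 for LpxA and -1.77 to -1.65 for CYN, and places 2, 5 and 9 to 11. The replicate block left the differences of the 3 genes as they were, and its count of called probes was 2069, against 1807 without it. Consecutive numbers averaged gave 1199 called probes, with fewer samples, and 1583 with the block. As deposited 1715 probes were higher and 479 lower in light, against 811 and 996 after quantile normalization. Leaving out 1 number gave 1644 to 1700. Above the 25th percentile of mean level, 1 list gene was left and called, AT1G24360. CKS and AT1G24360 were called under every alternative that tested them, at limma adjusted p-values of at most 0.0465 and 0.00554, and CCS was not called under 9 of 14. The unknown scaling and signal near the floor limit what can be said of the size of the differences.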

Other observations

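Deviations from the group means were more alike between probes with close probe numbers. Over 2758 probes never at the floor, the median Pearson's r of the deviations of 2 probes over the 12 samples was 0.36 for neighbouring numbers, 0.31 at a distance of 2 to 10, 0.17 at 11 to 50 and 0.04 at 51 to 200. The probe numbers of the 3 genes are 3247 for CUTA, 2903 for LpxA and 896 for CYN. Probes within 50 numbers of CYN had a median r of 0.32 with it, against 0.13 for probes further away, and for LpxA the values were 0.14 and -0.13. For CUTA they were -0.01 and 0.14, so its variation was not like that of its neighbours in number. Probe pairs share arrays and probes, so these are descriptions. What a probe number stands for on the array is not given in the sources used here, and its part in the variation of the 3 genes was not tested. The comparison was made after seeing the data.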
